A study of Mus musculus with 6 samples.

Results

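The 9 genes described here sense cellular sterol, move it or export it: Srebf1, Srebf2, Scap, Insig1, Insig2, Stard4, Abca1, Abcg1 and Nr1h2. They were chosen by name as regulators of SREBP, the sterol-responsive transcription factor, and as genes of LXR and of sterol efflux, out of 33157 rows of the count table. All 9 were among the 13483 genes that passed the filter on low counts. The cells were group 3 innate lymphoid cells (ILC3s), gut-resident lymphocytes, taken from wild-type mouse small intestine by sorting CD45+ lineage-negative CD127+ KLRG1- cells with high CD90.2. The first group, called IGF-1 below, was given 20 ng/mL of interferon-γ (IFN-γ) and 200 ng/mL of insulin-like growth factor 1 (IGF-1) in RPMI culture medium for 4 h. The other group, called control below, received the same IFN-γ without IGF-1, so every culture was exposed to IFN-γ and neither group shows the effect of IFN-γ itself. Each group held 3 libraries with total counts of 32573713 to 39206449. The labels do not say whether libraries came from separate mice, pools or cultures. The p-values therefore reflect library-to-library spread alone, which may be technical.

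Cells hold their sterol level by feedback. SCAP carries the SREBP precursors out of the endoplasmic reticulum for cleavage when sterol is low, and the INSIG proteins hold SCAP back when sterol is high. The freed SREBP fragments switch on genes of cholesterol and fatty acid synthesis, Insig1 among them, which closes the loop. LXR, a nuclear receptor for oxysterols, acts in the other direction by inducing the efflux transporters ABCA1 and ABCG1 and the gene Srebf1.

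Stretches of DNA around the starts of 4 genes are shown to give the matches, and their absence, for letters through which SREBP and its partner factors are known to act. Each window runs from 250 bases before to 50 after a RefSeq transcription start, on the gene's own strand, from RefSeq on GRCm38.p6. Windows were held for 7 of the 9 genes. Those printed are Insig1 (chr5:28071162-28071461, plus strand), its paralogue Insig2 (1 of 3 windows, picked because it is the one with CCAAT matches, chr1:121332540-121332839, minus strand), Srebf2 (chr15:82147019-82147318, plus strand) and, for comparison, the sterol enzyme gene Idi1 (chr13:8885356-8885655, plus strand), which is not one of the 9. Capitals mark the core of the sterol regulatory element searched as TCACNCCA, the E-box CACGTG and the CCAAT box, on either strand (ATTGG is CCAAT on the other strand).
Insig1: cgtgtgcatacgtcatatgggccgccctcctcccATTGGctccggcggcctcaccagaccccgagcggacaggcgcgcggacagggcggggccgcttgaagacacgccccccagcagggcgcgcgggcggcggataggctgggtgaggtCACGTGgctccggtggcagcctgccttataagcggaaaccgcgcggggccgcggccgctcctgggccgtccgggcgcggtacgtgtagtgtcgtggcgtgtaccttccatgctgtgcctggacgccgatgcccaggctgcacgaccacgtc
Insig2: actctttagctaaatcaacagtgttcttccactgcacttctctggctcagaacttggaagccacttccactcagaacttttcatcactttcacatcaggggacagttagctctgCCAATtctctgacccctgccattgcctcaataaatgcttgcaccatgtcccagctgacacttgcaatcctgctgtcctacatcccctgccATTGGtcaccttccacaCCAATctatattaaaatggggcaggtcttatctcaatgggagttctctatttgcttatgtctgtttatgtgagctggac
Srebf2: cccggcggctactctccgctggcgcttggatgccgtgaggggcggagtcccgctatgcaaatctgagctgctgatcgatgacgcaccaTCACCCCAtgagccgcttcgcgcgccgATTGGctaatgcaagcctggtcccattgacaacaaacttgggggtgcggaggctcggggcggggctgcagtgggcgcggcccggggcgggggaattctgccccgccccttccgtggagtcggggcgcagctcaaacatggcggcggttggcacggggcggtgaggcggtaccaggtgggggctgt
Idi1: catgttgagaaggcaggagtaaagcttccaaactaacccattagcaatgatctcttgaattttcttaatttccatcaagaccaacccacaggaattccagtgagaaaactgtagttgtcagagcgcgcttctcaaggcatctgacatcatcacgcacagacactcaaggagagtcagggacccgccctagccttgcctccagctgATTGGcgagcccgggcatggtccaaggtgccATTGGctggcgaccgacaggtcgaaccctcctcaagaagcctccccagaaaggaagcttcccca

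The Srebf2 window held the sterol element core at bases -162 to -155 from the start and a CCAAT box at -135 to -131. The core was found in 4.97% of the 27025 genes with a window, and in 1 of the 7 genes here. This form was chosen after matches had been seen. The element was first searched with 1 more letter, as TCACNCCAC, which was found in 0 of the 7 genes, in 1 of 15 sterol enzyme genes and in 1.44% of all genes, and as ATCACCCCAC, found in 0 of the 7 and 0.0999% of all genes. The letters were shortened once the Srebf2 window had been read, so the Srebf2 match was selected and supports nothing. Insig1 held an E-box at -101 to -96 and a CCAAT box at -216 to -212, and E-boxes were also found at Scap and Abca1, so 3 of 7 genes had one, against 8.09% of all genes. A CCAAT box, the letters read by NF-Y, a factor known to assist SREBP at sterol genes, was found at Srebf1, Srebf2, Insig1 and Insig2, or 4 of 7 genes, and in 41.1% of all genes. Some genes have more than 1 window, which raises a share by gene, and the 7 genes had 12. By window, 5 of the 12 held a CCAAT box, against 37.4% of all windows, and 4 an E-box, against 7.15%. Among the genes of 19 sterol synthesis enzymes, 15 had a window and 14 of these held a CCAAT box, while 2 held the sterol element core. The LXR element, searched as 2 copies of AGGTCA with any 4 bases between them, was found in 0 of the 7 genes and 0.0148% of all genes, and a looser form searched earlier, GGTNNNNNNAGGTNA, in 0 of the 7 and 1.15% of all genes. Apart from the longer forms, which contain the core, no match of one motif overlapped a match of another in these windows. These are matches of letters within a short window and not sites shown to be bound.

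The labelled cell type was checked against 10 defining ILC3 genes, all of which were expressed. Their summed level was 4860 to 5360 CPM in IGF-1 libraries and 4600 to 4820 CPM in control libraries, where CPM is the read count scaled to a common library size by TMM. The most abundant was Id2, a regulator that innate lymphoid cells need to develop, at 2260 to 2720 CPM in IGF-1 libraries and 1870 to 2030 CPM in control libraries. Of the 10, 8 had negative log2 fold changes (median of the list -0.15), so the higher sum does not show the direction of most of them. Among these 8 was Ahr, at 62.9, 45.8 and 68.4 CPM in IGF-1 libraries and 73.1, 70.6 and 101 CPM in controls (log2 fold change -0.47, adjusted p = 0.360 by edgeR). The 10 myeloid markers summed to 19.8 to 25.8 CPM in IGF-1 libraries and 16.9 to 20.5 CPM in controls, most of it Cd68 (13.6 to 15.0 CPM in IGF-1 libraries and 9.45 to 14.5 CPM in controls). DESeq2 called Csf1r of this list higher, on 94 counts that all came from IGF-1 replicates 1 and 2 (1.62 and 0.90 CPM). It did not pass the filter on low counts for edgeR. The 8 markers of T and B cells summed to 35.9 to 47.0 CPM in IGF-1 libraries and 43.0 to 50.9 CPM in controls, with Ms4a1 at 0 counts throughout. Most of that sum was Cd4, which some ILC3s also express, at 18.3 to 26.0 CPM in IGF-1 libraries and 30.1 to 35.3 CPM in controls (log2 fold change -0.52, adjusted p = 0.286 by edgeR). Cd3d and Cd3g had the opposite sign, with log2 fold changes of 1.05 and 0.56 (adjusted p = 0.467 and 0.598 by edgeR). Epithelial markers summed to 4.67 to 8.42 CPM in IGF-1 libraries and 8.01 to 9.51 CPM in controls, most of it Lgals4 (4.44 to 5.05 CPM in IGF-1 libraries and 6.19 to 6.97 CPM in controls), with Krt19 at 0 counts in every library. Stromal and endothelial markers, mostly Pecam1 (76.5 to 83.9 CPM in IGF-1 libraries and 84.7 to 110 CPM in controls), summed to 81.0 to 90.4 CPM in IGF-1 libraries and 90.5 to 116 CPM in controls. The difference in that sum rests mainly on Pecam1: of the 5 genes of the list that were tested, 2 had positive and 3 negative log2 fold changes. Over all genes tested, the groups did not overlap in 18.0%, counting either direction, so such separation of a single gene is common. The sums of the ILC3 and the stromal and endothelial lists and the levels of Id2, Ahr, Cd4, Lgals4 and Pecam1 did not overlap between the groups. The part of these differences in the results below was not tested. In a bulk library, fewer cells of one type and less RNA per cell cannot be told apart.

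With IGF-1, 0 of the 9 genes passed the test. By edgeR's quasi-likelihood test with Benjamini-Hochberg adjustment over all 13483 genes, adjusted p-values for the 9 ran from 0.174 to 0.941. Over all genes 0.497% passed. At an unadjusted p under 0.05, 1 of the 9 was higher with IGF-1 (Insig1) and 1 lower (Abcg1), against 5.58% and 6.24% of all genes. By DESeq2, 0 were higher and 1 was lower (Abcg1), against 1.48% and 1.91% of the 14202 genes to which it gave an adjusted p. By limma-voom 0 passed in either direction, against 0.267% of all genes higher and 0.445% lower. The log2 fold changes, IGF-1 over control, were positive for 4 genes and negative for 5, with a median of -0.08, and over all genes 48.7% were positive with a median of -0.01. The groups did not overlap in 3 of the 9 genes. Stard4 was higher in every IGF-1 library, as were 8.81% of all genes, and Srebf1 and Abcg1 were lower in every one, as were 9.17% of all genes, or 18.0% in either direction.

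**Figure D1:**
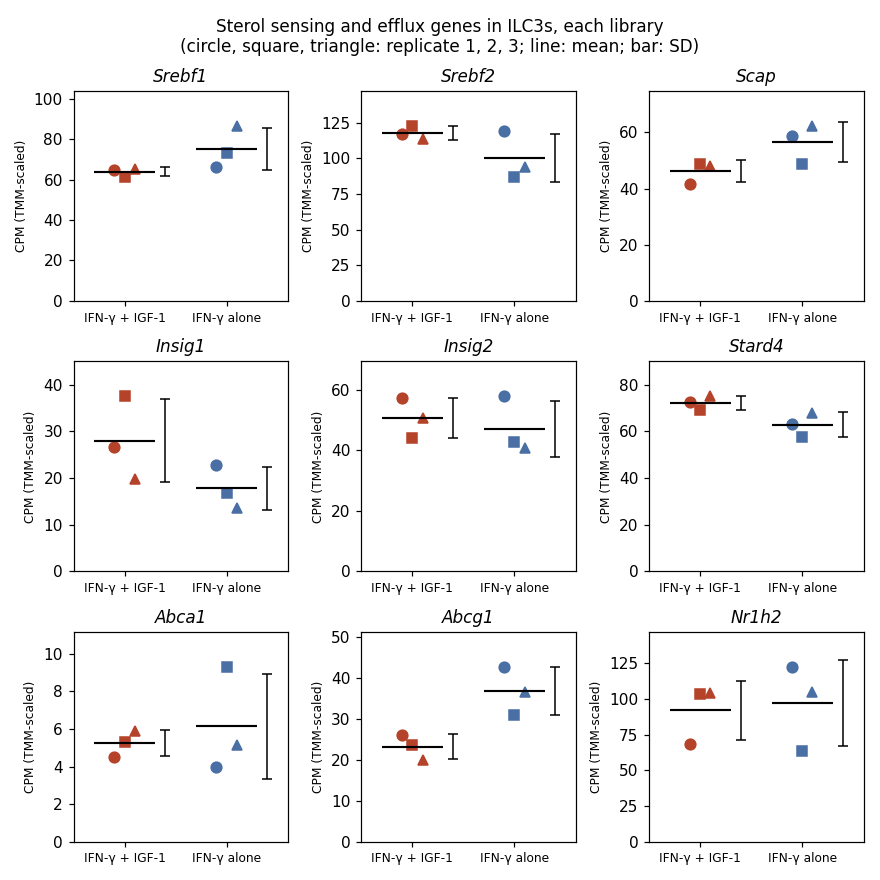
TMM-scaled CPM of the 9 genes in each of the 3 IGF-1 libraries (left, red) and 3 control libraries (right, blue), with the mean as a line and the SD as a bar. The groups are separated for Stard4, Srebf1 and Abcg1 and overlap for the other 6 genes.

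Set per kilobase of exon, which allows levels of different genes to be compared, Nr1h2 was the most abundant of the 9 at 45.8 ± 10.1 CPM per kb in IGF-1 libraries and 48.3 ± 15.0 in control libraries (SD, n = 3 each, as for all means below). Srebf2 followed at 23.2 ± 0.93 CPM per kb in IGF-1 libraries and 19.7 ± 3.34 in control libraries, where Srebf1 was above it in replicate 3. Insig2, Srebf1, Stard4, Scap and Insig1 formed a middle range, from 17.2 ± 2.25 CPM per kb for Insig2 to 10.4 ± 3.31 for Insig1 in IGF-1 libraries, and from 17.5 ± 2.42 for Srebf1 to 6.59 ± 1.73 for Insig1 in control libraries. In IGF-1 libraries the ranges of Insig2 and Srebf1, Srebf1 and Stard4, and Scap and Insig1 overlapped, although Insig2 was above Srebf1 and Srebf1 above Stard4 within each library. Stard4 lay above Scap in every IGF-1 library and below it in every control library. In control libraries the ranges of Srebf2, Srebf1, Insig2, Scap and Stard4 overlapped from each to the next, and Insig1 lay below all of them. Abcg1 stood at 3.40 ± 0.44 CPM per kb in IGF-1 libraries and 5.37 ± 0.85 in control libraries. Abca1 was the least abundant, at 0.51 ± 0.07 CPM per kb with IGF-1 and 0.60 ± 0.27 in controls. Exon lengths came from GENCODE M21, another annotation than the one used for counting, so this order is approximate.

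The sterol-responsive transcription factors come first. Srebf1 encodes SREBP-1, which acts mainly on fatty acid genes, and stood at 64.6, 61.2 and 65.4 CPM in IGF-1 libraries and 66.1, 73.0 and 86.5 CPM in control libraries. Every IGF-1 library was below every control library, but the gap between the nearest libraries, 65.4 and 66.1 CPM, was small. The log2 fold change was -0.13 without control replicate 3 and -0.32 without control replicate 1 (for the latter, unadjusted p = 0.0388, adjusted p = 0.291 by edgeR). Over all libraries it was -0.24 (SE 0.14, 95% interval -0.54 to 0.06, adjusted p = 0.547 by edgeR). Srebf2 encodes SREBP-2, which acts mainly on cholesterol synthesis, and stood at 117, 123 and 114 CPM in IGF-1 libraries and 119, 86.9 and 94.3 CPM in control libraries. The 3 IGF-1 libraries were close together, and control replicate 1 lay among them while the other 2 controls were lower. Its log2 fold change was 0.23 (SE 0.14, 95% interval -0.08 to 0.55, adjusted p = 0.568 by edgeR). It was 0.38 without control replicate 1 (unadjusted p = 0.0110, adjusted p = 0.178 by edgeR) and 0.14 without control replicate 2.

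The ratio of these paralogues was taken within each library, which needs no scaling between libraries. Their fold changes above come from the same counts, so the ratio restates them and is no separate evidence. Srebf1 had 0.551, 0.498 and 0.577 counts per Srebf2 count in IGF-1 libraries and 0.554, 0.840 and 0.918 in control libraries. Control replicate 1 fell inside the range of the IGF-1 libraries and the other 2 controls lay above it. The mean log2 ratio was -0.89 ± 0.11 in IGF-1 libraries and -0.41 ± 0.39 in control libraries, a difference of -0.48 (exact two-sided permutation p = 0.2, where 3 libraries against 3 cannot go below 0.1). Ratios were tested for 3 pairs of genes, this one and the INSIG and efflux transporter pairs below, and the Benjamini-Hochberg p over the 3 was 0.45.

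The SREBP escort and its anchors showed no change that passed the test. Scap, the sterol-sensing escort of SREBP, stood at 41.8, 48.9 and 47.9 CPM in IGF-1 libraries and 58.8, 48.7 and 62.3 CPM in control libraries. Control replicate 2 lay within the IGF-1 range and the other 2 controls above it. The log2 fold change was -0.29 (SE 0.15, 95% interval -0.62 to 0.03, adjusted p = 0.474 by edgeR). In GENCODE M21, 18.6% of the exon length of Scap is also exon of 5830462I19Rik on the other strand, and the library kit does not mark strand, so reads of that stretch cannot be told apart.

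Insig1, the anchor gene that is itself a target of SREBP, had the largest positive difference of the 9. It stood at 26.8, 37.5 and 19.8 CPM in IGF-1 libraries and 22.8, 16.9 and 13.6 CPM in control libraries. IGF-1 replicate 2 was far above all others, and IGF-1 replicate 3 was below control replicate 1, so the groups overlapped. The means were 28.0 ± 8.92 CPM with IGF-1 and 17.8 ± 4.67 CPM in controls, a log2 fold change of 0.66 or 57.6% (SE 0.27, 95% interval 0.06 to 1.25, unadjusted p = 0.0332, adjusted p = 0.362 by edgeR). Without IGF-1 replicate 2 the log2 fold change was 0.39 (adjusted p = 0.789 by edgeR), and over all alternatives the adjusted p ran from 0.103 to 0.789.

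Insig2, the paralogue known to be less dependent on SREBP, stood at 57.3, 44.0 and 50.7 CPM in IGF-1 libraries and 57.7, 42.8 and 40.6 CPM in control libraries. The highest and the lowest library were both controls. Its log2 fold change was 0.11 (SE 0.17, 95% interval -0.27 to 0.49, adjusted p = 0.868 by edgeR). With 1 library left out it ran from 0.009 (without IGF-1 replicate 1) to 0.28 (without control replicate 1), and it was 0.01 without control replicate 3 and 0.04 without control replicate 2. There were 0.467, 0.852 and 0.391 counts of Insig1 per count of Insig2 in IGF-1 libraries and 0.396, 0.394 and 0.336 in control libraries. The controls were close to one another and to IGF-1 replicate 3, and IGF-1 replicate 2 was again far above the rest. The log2 ratio differed by 0.52 between the groups (exact two-sided permutation p = 0.3, or 0.45 over the 3 ratios), and by 0.19 without IGF-1 replicate 2.

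Stard4 encodes a soluble carrier that moves cholesterol between membranes and is a known SREBP target. It stood at 72.4, 69.0 and 75.0 CPM in IGF-1 libraries and 63.2, 57.5 and 68.1 CPM in control libraries. Every IGF-1 library was above every control library, by a narrow margin between IGF-1 replicate 2 and control replicate 3. The log2 fold change was 0.20 or 14.7% (SE 0.13, 95% interval -0.08 to 0.48, adjusted p = 0.597 by edgeR). Its spread within groups was among the smallest: the SD of log2 CPM was 0.10, and 9.47% of the 4013 genes of similar level had a lower one.

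**Figure D2:**
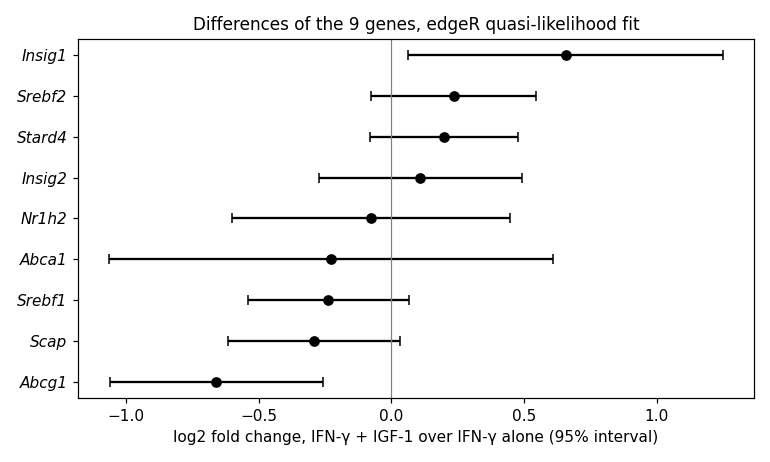
Log2 fold changes of the 9 genes, IGF-1 over control, with 95% intervals from the edgeR fit. The intervals of Insig1 (0.06 to 1.25) and Abcg1 (-1.06 to -0.26) do not include 0 before adjustment over all genes, and the other 7 do.

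On the efflux side, Nr1h2 encodes LXRβ, the LXR form made in most cells, and stood at 68.4, 103 and 104 CPM in IGF-1 libraries and 122, 63.7 and 105 CPM in control libraries. Low values stood in IGF-1 replicate 1 and control replicate 2, 1 library of each group, and the groups overlapped throughout. The log2 fold change was -0.08 (SE 0.24, 95% interval -0.60 to 0.45, adjusted p = 0.941 by edgeR), and it turned positive without IGF-1 replicate 1 (0.09) or without control replicate 1 (0.12). Nr1h3, the gene of the other LXR form, LXRα, had at most 1.99 CPM in any library.

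Abcg1 encodes a transporter that moves cholesterol toward lipoprotein particles, and it had the largest negative difference and the smallest p of the 9. It stood at 26.1, 23.5 and 20.0 CPM in IGF-1 libraries and 42.6, 31.0 and 36.4 CPM in control libraries. Every IGF-1 library was below every control library. The means were 23.2 ± 3.03 CPM with IGF-1 and 36.7 ± 5.81 CPM in controls, a log2 fold change of -0.66 or -36.7% (SE 0.18, 95% interval -1.06 to -0.26, unadjusted p = 0.00414, adjusted p = 0.174 by edgeR). By DESeq2 the adjusted p was 0.0369 and by edgeR without a filter on low counts 0.0486, so the call depended on the tool and the filter, and over all alternatives the adjusted p ran from 0.0369 to 0.486.

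Abca1 encodes the transporter that loads cholesterol onto apolipoprotein A-I and was scarce, with 148 to 311 counts per library. It stood at 4.51, 5.31 and 5.91 CPM in IGF-1 libraries and 3.97, 9.30 and 5.15 CPM in control libraries. Control replicate 2 was far above the other 5 libraries and control replicate 1 was the lowest. The log2 fold change was -0.23 (SE 0.38, 95% interval -1.07 to 0.61, adjusted p = 0.875 by edgeR), and it was 0.20 without control replicate 2. A difference of the size seen for Abcg1 lies within that interval. Counts of Abca1 per count of Abcg1 were 0.173, 0.226 and 0.295 in IGF-1 libraries and 0.0933, 0.300 and 0.142 in control libraries, with both the highest and the lowest value in controls (difference of log2 ratios 0.51, exact two-sided permutation p = 0.5, also over the 3 ratios). That difference was 0.13 without control replicate 1, 0.32 without IGF-1 replicate 3 and 0.97 without control replicate 2.

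The enzymes that SREBP controls were set beside these genes, as a list of 19 sterol synthesis enzymes. Of these, 18 had positive log2 fold changes with a median of 0.60, against -0.08 for the 9 genes and -0.01 for all genes. By edgeR, 2 rose and 0 fell (0.230% of all genes rose and 0.267% fell), and at an unadjusted p under 0.05, 12 were higher and 1 lower, against 5.58% and 6.24% of all genes. The edgeR calls were lost, leaving 0, with the replicate number as a block and in 5 of the 6 fits that leave out 1 library, and 1 call was left without control replicate 1. By DESeq2, 11 were higher and 0 lower, against 1.48% and 1.91% of all genes, and by limma-voom 3 and 0, against 0.267% and 0.445%. Idi1, an isomerase of the isoprenoid steps, stood at 57.9, 52.6 and 53.8 CPM in IGF-1 libraries and 27.4, 24.3 and 20.3 CPM in controls (log2 fold change 1.19, SE 0.16, adjusted p = 0.0193 by edgeR). Msmo1, which oxidises methyl groups of the sterol ring for their removal, stood at 277, 312 and 288 CPM in IGF-1 libraries and 186, 196 and 188 CPM in controls (0.62, SE 0.11, adjusted p = 0.0461 by edgeR). Both were separated between groups by far more than the spread among replicates. Fdps, which makes farnesyl diphosphate, stood at 184 ± 32.1 CPM with IGF-1 and 111 ± 9.34 CPM in controls (0.73, SE 0.15, adjusted p = 0.0749 by edgeR). Acat2, a thiolase at the head of the pathway, was the exception in sign, at 40.9 ± 8.74 CPM with IGF-1 and 58.9 ± 4.90 CPM in controls (-0.53, SE 0.18, adjusted p = 0.256 by edgeR).

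Library by library, the median of the 19 enzymes, as log2 CPM minus the mean over the 6 libraries, was 0.26, 0.41 and 0.18 in IGF-1 libraries and -0.19, -0.25 and -0.33 in controls. Insig1 on the same scale was at 0.30, 0.79 and -0.13 in IGF-1 libraries and 0.07, -0.36 and -0.67 in controls. Within each group the 3 libraries stood in the same order for both, with a wider range for Insig1, whose IGF-1 replicate 3 lay below control replicate 1. Of 65 genes of the lipid lists with at least 10 CPM, those closest to Insig1 over the 6 libraries were Fdps, Pmvk and Sc5d, all sterol enzymes, at root mean square distances of 0.23, 0.24 and 0.24 log2 units (median of the 65: 0.46). Sterol enzymes made up 17 of the 65, or 26.2%, and the distances include the difference between the groups, so the match of names is a description. The genes closest to Srebf1 were Acss2 (0.13), Gramd1b (0.14) and Ncor1 (0.14), and those closest to Abca1 were Ncor1 (0.29), Stard5 (0.31) and Gramd1b (0.32), whose log2 fold changes ran from -0.19 for Stard5 to -0.03 for Gramd1b.

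**Figure D3:**
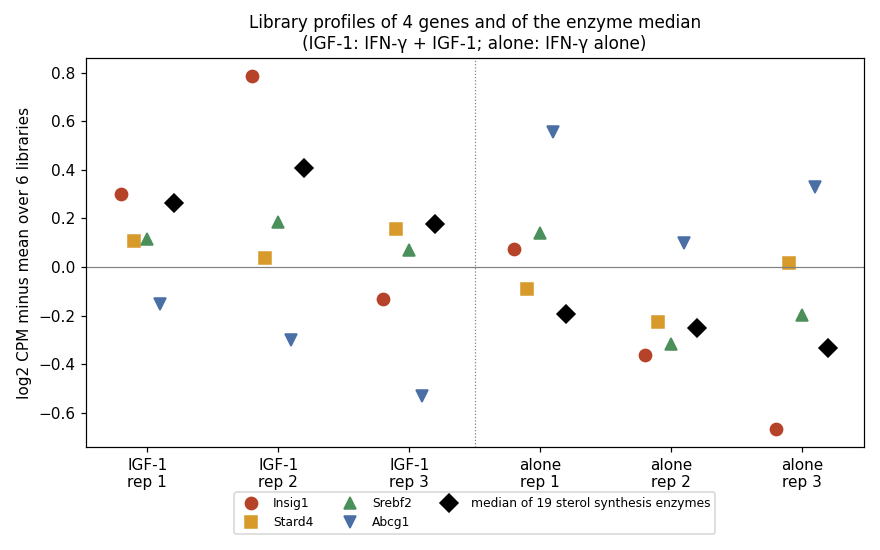
Log2 CPM minus the mean over the 6 libraries for Insig1, Stard4, Srebf2, Abcg1 and the median of 19 sterol synthesis enzymes, with IGF-1 libraries left of the dotted line and control libraries right of it. The enzyme median is above 0 in all 3 IGF-1 libraries and below 0 in all 3 controls, Abcg1 lies the other way, and Insig1 is above 0 in IGF-1 replicates 1 and 2 and in control replicate 1.

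Of 9 genes whose products cleave SREBP or turn over INSIG, 0 passed the test by edgeR, DESeq2 or limma-voom, and 1 was higher at an unadjusted p under 0.05, with a median log2 fold change of -0.002. That gene was Ufd1, which helps extract proteins from the endoplasmic reticulum for degradation, at 168 ± 8.93 CPM with IGF-1 and 131 ± 16.6 CPM in controls (0.36, SE 0.13, adjusted p = 0.301). Mbtps1, the site-1 protease of SREBP, was at 62.6 ± 12.0 CPM with IGF-1 and 74.6 ± 6.95 CPM in controls (-0.25, SE 0.16, adjusted p = 0.592). The ubiquitin ligase gene Rnf145 was at 55.4 ± 9.10 CPM with IGF-1 and 65.6 ± 11.2 CPM in controls (-0.25, SE 0.17, adjusted p = 0.631). In the remaining paragraphs adjusted p-values and counts are edgeR's unless DESeq2 is named, and limma-voom gave 0 calls in each of those lists. Counts at an unadjusted p under 0.05, for this list and those below, stand against 5.58% of all genes higher and 6.24% lower. DESeq2 calls stand against 1.48% higher and 1.91% lower.

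Of 15 fatty acid synthesis genes, the branch ascribed to SREBP-1, 13 were tested, 0 passed, and 3 were higher and 1 lower at an unadjusted p under 0.05 (median 0.11). DESeq2 called 1 higher, Scd2. This desaturase gene was at 60.6 ± 9.08 CPM with IGF-1 and 33.8 ± 10.5 CPM in controls (0.84, SE 0.22, adjusted p = 0.149), while the elongase gene Elovl6 was at 25.1 ± 5.65 CPM with IGF-1 and 15.7 ± 1.78 CPM in controls (0.68, SE 0.21, adjusted p = 0.226). The lower one was Acacb, a carboxylase gene with 62 counts over all 6 libraries, at 0.03, 0.06 and 0 CPM in IGF-1 libraries and 0.48, 0.63 and 0.56 CPM in controls (adjusted p = 0.204). Acacb passed the filter on low counts through its control libraries alone, so it is no support for a fall in this list.

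Genes that LXR works with or induces, other than the transporters, also had 0 that passed, of 10 tested (median -0.21), with 1 higher and 2 lower at an unadjusted p under 0.05. DESeq2 called 1 lower, Rxrb. It encodes a partner receptor of LXR and stood at 18.4, 25.8 and 24.6 CPM in IGF-1 libraries and 40.1, 37.6 and 34.6 CPM in controls (-0.71, SE 0.18, adjusted p = 0.139). Smpdl3a, a phosphodiesterase gene induced by LXR in human macrophages, was at 85.6 ± 6.44 CPM with IGF-1 and 117 ± 15.6 CPM in controls (-0.45, SE 0.14, with adjusted p = 0.204). Pltp, which encodes a phospholipid transfer protein, had the opposite sign, at 16.2 ± 3.01 CPM with IGF-1 and 7.77 ± 4.16 CPM in controls (1.06, SE 0.38, adjusted p = 0.295). The LXR targets Mylip, a ubiquitin ligase gene, and Lpcat3, a phospholipid-remodelling gene, had log2 fold changes of 0.008 (SE 0.15) and 0.04 (SE 0.16).

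Relatives of the efflux transporters numbered 9, of which 6 were tested and 0 passed, with 0 higher and 1 lower at an unadjusted p under 0.05 (median -0.19). DESeq2 called 1 lower, Abca7. This close relative of Abca1 was at 91.7 ± 12.1 CPM with IGF-1 and 135 ± 24.0 CPM in controls (-0.56, SE 0.16, adjusted p = 0.190). Abca2 was at 44.0 ± 7.13 CPM with IGF-1 and 37.3 ± 1.86 CPM in controls (0.24, SE 0.16, adjusted p = 0.612). Abcg2 stood at 6.06 ± 1.85 CPM with IGF-1 and 8.45 ± 2.22 CPM in controls (-0.48, SE 0.33, adjusted p = 0.638).

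Among 17 genes of sterol uptake, transport and storage, 16 were tested and 0 passed, with 2 higher and 1 lower at an unadjusted p under 0.05 (median -0.07). DESeq2 called 1 lower, Gramd1a. Its product carries plasma membrane cholesterol to the endoplasmic reticulum, and it was at 188 ± 28.7 CPM with IGF-1 and 262 ± 30.9 CPM in controls (-0.48, SE 0.14, adjusted p = 0.206). The cholesterol-esterifying enzyme gene Soat2 was at 12.0 ± 0.75 CPM with IGF-1 and 6.83 ± 2.93 CPM in controls (0.81, SE 0.33, adjusted p = 0.366). Nceh1, which encodes a cholesteryl ester hydrolase, was at 20.1 ± 2.58 CPM with IGF-1 and 14.8 ± 0.80 CPM in controls (0.44, SE 0.19, adjusted p = 0.400).

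Of 7 oxysterol genes, 4 were tested and 0 passed, with 0 at an unadjusted p under 0.05 and 0 by DESeq2. Their median log2 fold change, 0.69, was above that of the sterol synthesis enzymes, but rests on few counts. Ch25h, which makes an oxysterol, had 81 counts over the 6 libraries, and Cyp27a1 66 counts, with log2 fold changes of 1.37 (SE 1.74, adjusted p = 0.831) and 1.31 (SE 1.74, adjusted p = 0.838). Sult2b1, a sterol sulfotransferase gene, was at 0.98 ± 0.39 CPM with IGF-1 and 1.27 ± 0.79 CPM in controls (-0.38, SE 0.79, adjusted p = 0.907). Gpr183, the oxysterol receptor that positions ILC3s in the gut, was abundant at 738 ± 35.1 CPM with IGF-1 and 709 ± 109 CPM in controls (0.06, SE 0.13, adjusted p = 0.913).

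**Figure D4:**
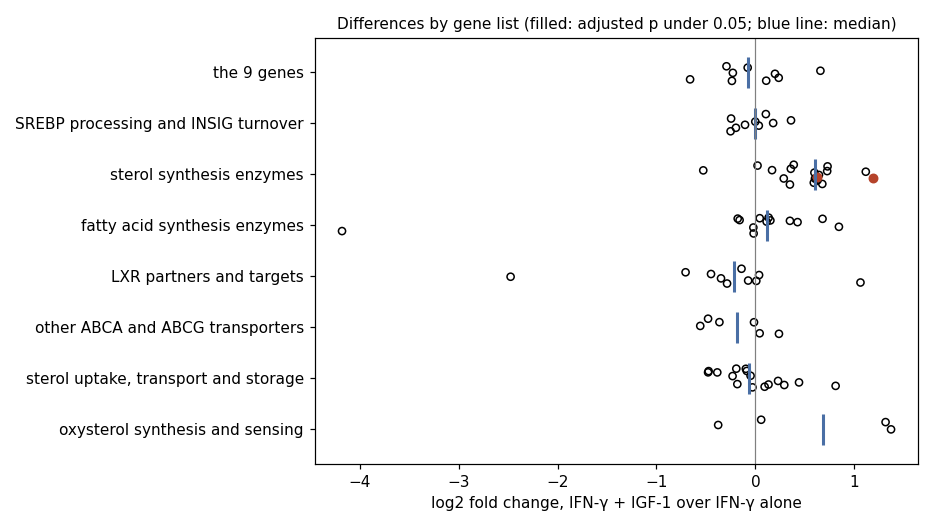
Log2 fold changes, IGF-1 over control, of the 9 genes and of the tested genes of 7 lists, 1 point a gene, with list medians as blue lines. The 2 filled points, Idi1 and Msmo1 among the sterol synthesis enzymes, are the genes with an adjusted p under 0.05, and the median of that list is 0.60 while that of the 9 genes is -0.08. The median of the 4 oxysterol genes is 0.69.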

How the data were processed

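Cells were lysed and libraries prepared with SMART-Seq HT reagents, per the labels. The authors deposited raw counts by gene symbol, and 88 rows repeat an earlier symbol. The submitters' processing notes name fastp 0.23.2, HISAT2 2.2.1, SAMtools 1.15.1, featureCounts 1.5.3 and the build GRCm39. Which annotation and strand setting were used, and how multi-mapping reads were counted, is not given in the sources used here. Libraries were grouped by title.

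Genes were kept by filterByExpr (minimum count 10, minimum total 15), which left 13483 of 33157 rows and removed 0.0806% of the counts. Groups were compared with edgeR 4.0.16 in R 4.3.3 (TMM, glmQLFit, glmQLFTest, group as the only term, Benjamini-Hochberg adjustment over all genes at 0.05). SE is the log2 fold change divided by the square root of F. The procedure was tested on simulated data. Within groups, libraries differed by far more than sampling noise (chi-square per degree of freedom 39.0 to 88.5), so none was a duplicate. The counts are of PCR reads with no molecular identifiers, so they are not independent molecules.

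The 9 genes and all lists were chosen with earlier results of these data known. All 9 genes are described. From each lipid list the 3 genes with the smallest p and any called gene were named by rule, and from each marker list its most abundant gene. For Insig1, Srebf1 and Abca1, the 3 closest genes by profile were named by rule. Acat2, Ahr, Csf1r, Ms4a1, Krt19, Mylip, Lpcat3, Gpr183 and Nr1h3 were named after their values were seen. Alternatives were DESeq2 1.42.0, limma-voom (limma 3.58.1), RLE, upper quartile and library size scaling, other filters, the replicate number as a block and each library left out. Motifs were searched on both strands in RefSeq windows on GRCm38.p6, a build other than that of the counts. The sterol element's letters were shortened, a looser LXR element was dropped and the Insig2 window was picked after matches were seen. No coordinate was moved between builds. For 1 marker gene the result is not reported here.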

Additional observations from a re-analysis of the deposited data

How the results depend on the processing

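Of the 9 genes, 7 kept the sign of their difference under every alternative run, and 2 did not. Nr1h2 was at 0.0939 without IGF-1 replicate 1 and 0.1249 without control replicate 1, and over the 6 fits that leave out 1 library it ran from -0.3089 to 0.1249. Abca1 ran from -0.4649 to 0.1975, the last without control replicate 2. By DESeq2 the 9 genes gave 1 lower call (Abcg1), against 1.91% of all genes. With no filter on low counts, Abcg1 was again the 1 lower call. That fit called 258 rows lower, out of 33157 less the 9897 with 0 counts. All other alternatives gave 0 calls among the 9. Counts over all genes, 31 higher and 36 lower in the main analysis, depended on processing. They were 171 and 258 with no filter, 63 and 115 among genes at 10 CPM in 3 libraries, 210 and 271 by DESeq2, and 36 and 60 by limma-voom. With 1 library left out they were 0 to 24 higher and 0 to 31 lower. Calls among the 19 sterol synthesis enzymes, 2 higher, were 1 with library size scaling, 9 with no filter, 6 at 10 CPM, 11 by DESeq2, and 0 to 1 with 1 library left out. Only leaving out control replicate 1 left a call there. The cause was not tested.

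With the replicate number as a block, 3 genes were higher and 5 lower, and 0 sterol synthesis enzymes and 0 of the 9 genes were called. The labels do not say whether the numbers pair libraries. Across genes, deviations of same-numbered libraries correlated at -0.239, -0.112 and 0.188, and only replicate 3 correlated best with its own number. Deviations were taken from the mean of each group of 3, which forces the correlations to balance, and a small shared effect would not show. These values therefore cannot decide whether libraries were paired. The within-library ratios of Srebf1 to Srebf2, Insig1 to Insig2 and Abca1 to Abcg1 kept their sign with 1 count added and with each library left out. As 3 same-numbered differences they had means of -0.4772, 0.5226 and 0.5129. These equal the main differences by construction, so they are no check of the sign. An exact sign-flip test on 3 such differences cannot go below p = 0.25. Abca1 was not among the genes at 10 CPM in 3 libraries. At 148 to 311 counts, depth limits what can be said of it.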

Other observations

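The spread within groups differed among the 9 genes. For Nr1h2 the pooled within-group SD of log2 CPM was 0.43, and 98.3% of the 3589 genes within 1 log2 unit of its level had a lower one (their median was 0.17). Insig1 had an SD of 0.42 and stood above 90.0% of the genes of its level, and Abcg1, at 0.21, above 44.1%. In Nr1h2 the low libraries were IGF-1 replicate 1 and control replicate 2. Across 8565 genes the deviations of these libraries from their group means correlated at 0.269, the highest of the 9 pairings of an IGF-1 with a control library. IGF-1 replicate 2 with control replicate 1 followed at 0.256 and IGF-1 replicate 3 with control replicate 3 at 0.188, and the other 6 ran from -0.239 to 0.008. Genes are not independent replicates, and the labels give nothing that ties these libraries to each other.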
